A study of Mus musculus with 17 samples.

Results

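The tripartite motif (TRIM) genes encode a large family of proteins built from a RING domain, B-boxes and a coiled coil, most of which act as ubiquitin ligases. Members were the protein-coding genes whose mouse symbol is Trim followed by a number and, for some, a letter, with at least 10 counts in at least 3 of the 17 libraries. Of 68 such symbols among the 55421 genes of the count tables, 48 passed, and 45 of these had at least 10 counts in every library. The other 20 symbols did not exceed 14 counts in any library and 2 of them had no count at all, among them Trim34b, Trim54, Trim55, Trim63 and Trim69 with at most 12 counts. The members took 0.191 to 0.231% of the counts of a library.

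The family is known for its place in innate immunity. Several TRIM ligases switch cytosolic RNA and DNA sensors on or off or bind incoming viruses, and many carry a PRY-SPRY domain at the C-terminus that recognizes the target. A subset of TRIM genes is transcribed in response to interferon through transcription factors that are activated by the receptor-bound kinases Tyk2 and Jak1, while other members serve chromatin, cytoskeleton or development.

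Colorectal tumors of C57BL/6 mice were induced with azoxymethane (AOM), a mutagen, and repeated courses of dextran sulfate sodium (DSS), which inflames the colon, and the RNA of whole tumors was sequenced. Tumors of Tyk2Δ/Δ mice (n = 3), which carry a germline deletion in all cells, were compared with Tyk2+/+ tumors (n = 3). Tumors of Tyk2ΔIEC mice (n = 4), in which Villin-cre deletes the floxed Tyk2 in the intestinal epithelium and leaves it in immune and stromal cells, were compared with tumors of Tyk2fl/fl mice without cre (n = 7). All groups received AOM and DSS, and the ages of the mice were not given in the sources used here. The labels speak of single tumors and the study of pooled tumor samples, so p-values measure the spread between these samples, which may come in part from the same animals.

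Totals of counts on genes were 19129696 to 21707373 in the Tyk2+/+, Tyk2Δ/Δ and Tyk2ΔIEC libraries and 29777763 to 35427965 in the Tyk2fl/fl libraries. Xist had 40656 to 45446 counts in Tyk2fl/fl replicates 1 to 3 and at most 106 in any other library. It is thus uneven both between Tyk2ΔIEC and Tyk2fl/fl and between the control groups. The deletion removes an exon that holds the start codon and leaves the transcript, and Tyk2 was at 55.5 to 57.7 CPM (counts scaled to library size) in Tyk2+/+ and at 58.1 to 59.1 CPM in Tyk2Δ/Δ libraries, so its level does not check the labels. The summed level of 6 epithelial markers was 4824 to 7515 CPM over all libraries, and none of the 6 passed in either comparison. Levels are CPM with library sizes scaled by edgeR's TMM factors, and a change is called at an adjusted p under 0.05 in edgeR's quasi-likelihood test with Benjamini-Hochberg adjustment over all genes.

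The promoters that carry an interferon motif are shown first, since all 4 members that fell in Tyk2Δ/Δ tumors carry it. Promoters (300 bases around the start, RefSeq, GRCm38.p6) were found for 38 of the 48 members. The core of the interferon-stimulated response element, GAAANNGAAA on either strand, was in 9 of these 38 members (Trim2, Trim5, Trim12a, Trim12c, Trim21, Trim26, Trim30a, Trim30d and Trim34a), and in 1079 of 27025 genes with a promoter (3.99%) or 3.44% of all promoters. It was in 7 of the 13 members whose change differed between the deletions and in 2 of the other 25 (Trim2 and Trim26). These 7 are all in the chromosome 7 cluster, which has 12 members with a promoter. Trim10, Trim23, Trim25, Trim37 and Trim56, which also differed but lie outside the cluster, had no match. Motif and cluster can thus not be told apart here. The 150 bases before the start are printed for the 4 members that fell in Tyk2Δ/Δ tumors, 5′ to 3′ on the gene's strand with the motif in capitals, where it reads as its reverse complement.
Trim30a (chr7:104465194-104465343, minus strand): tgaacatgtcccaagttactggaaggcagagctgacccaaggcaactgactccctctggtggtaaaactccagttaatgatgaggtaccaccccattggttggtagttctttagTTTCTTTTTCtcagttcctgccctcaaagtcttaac
Trim30d (chr7:104507850-104507999, minus strand): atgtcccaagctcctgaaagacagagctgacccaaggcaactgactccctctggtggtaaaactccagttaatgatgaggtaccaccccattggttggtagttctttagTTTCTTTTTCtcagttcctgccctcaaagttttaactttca
Trim5 (chr7:104288107-104288256, minus strand): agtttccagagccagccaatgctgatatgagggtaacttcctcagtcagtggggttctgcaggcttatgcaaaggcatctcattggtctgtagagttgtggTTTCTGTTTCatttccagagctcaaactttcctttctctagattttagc
Trim12c (chr7:104353350-104353499, minus strand): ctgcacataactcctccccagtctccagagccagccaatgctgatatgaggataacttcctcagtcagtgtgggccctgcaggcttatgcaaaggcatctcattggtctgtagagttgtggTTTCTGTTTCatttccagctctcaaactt
The promoters of Trim30a and Trim30d share an identical run of 118 bases with the motif. Those of Trim5 and Trim12c share a longest run of 71 bases that does not hold the motif, and a shorter identical stretch around it. These are thus copies rather than separate occurrences. The promoters of Trim5 and Trim12a share 241 bases, with RefSeq placing the start of Trim12a before the motif. In 3 further members of the cluster the motif lies just after the RefSeq start, and 30 bases around it are given. For Trim21 another match overlaps the end of the capitalized one and is otherwise left in lower case.
Trim12a (chr7:104315466-104315495, minus strand): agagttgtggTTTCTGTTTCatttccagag
Trim34a (chr7:104244457-104244486, plus strand): tggtttggagTTTCAGTTTCttttctctgc
Trim21 (chr7:102565450-102565479, minus strand): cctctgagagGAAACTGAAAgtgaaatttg
A second motif, TTCNNNGAA on either strand, the core of the GAS element, was in 5 of the 38 members (Trim15, Trim30c, Trim31, Trim45 and Trim46) and in 9.55% of all genes with a promoter. A match is a match of letters and was not tested for binding.

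Germline deletion of Tyk2 was compared with wild type to see which members follow Tyk2 when it is missing from all cells. Trim30a, Trim30d, Trim5 and Trim12c, which are neighbours on chromosome 7, fell in Tyk2Δ/Δ tumors, and no member rose. Of 45 members tested 4 passed as lower, against 2.13% of all 16179 genes tested, and 3 of them were lower more than 2-fold, against 1.21% of all genes. None passed as higher in edgeR, where 0.668% of all genes did. At an unadjusted p under 0.05 there were 14 members lower and 8 higher, and 3681 of the 16179 genes in either direction. DESeq2 called 8 lower and 2 higher, and limma voom 4 and 0. The median log2 fold change was -0.07 over the 45 members and 0.00 over all genes.

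Trim30a, a regulator that restrains NF-κB signalling downstream of Toll-like receptors, was at 12.4, 18.4 and 23.6 CPM in Tyk2+/+ and at 4.95, 4.17 and 4.94 CPM in Tyk2Δ/Δ libraries. All Tyk2Δ/Δ values lay below the lowest wild-type value, and the log2 fold change was -1.96 ± 0.23 (SE, edgeR adjusted p = 0.00645), or 3.88-fold lower. Its neighbour Trim30d was at 11.3, 17.9 and 16.9 CPM against 6.89, 4.37 and 6.63 CPM, again without overlap (log2 -1.36 ± 0.23, edgeR adjusted p = 0.0249).

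Trim5 and Trim12c belong to the mouse genes related to human TRIM5, a factor that restricts retroviruses after entry. Trim5 had 8.68, 6.93 and 10.5 CPM in Tyk2+/+ and 3.84, 2.73 and 3.90 CPM in Tyk2Δ/Δ libraries (log2 -1.32 ± 0.21, edgeR adjusted p = 0.0230). Trim12c had 42.2, 39.9 and 44.2 CPM against 25.2, 22.2 and 32.0 CPM, the smallest change of the 4 with a log2 fold change of -0.67 ± 0.13 (edgeR adjusted p = 0.0394). Neither pair of groups overlapped. In this comparison 25 of the 48 members had no overlap, while 4 passed, and the share over all genes was not counted. Of the 75-base stretches of the exons, 20.6% in Trim5 and 17.3% in Trim12c also occur in other genes, mainly in each other and in Trim12a. Reads from such stretches do not tell these genes apart. The shares were 5.0% for Trim30a and 5.4% for Trim30d.

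**Figure D1:**
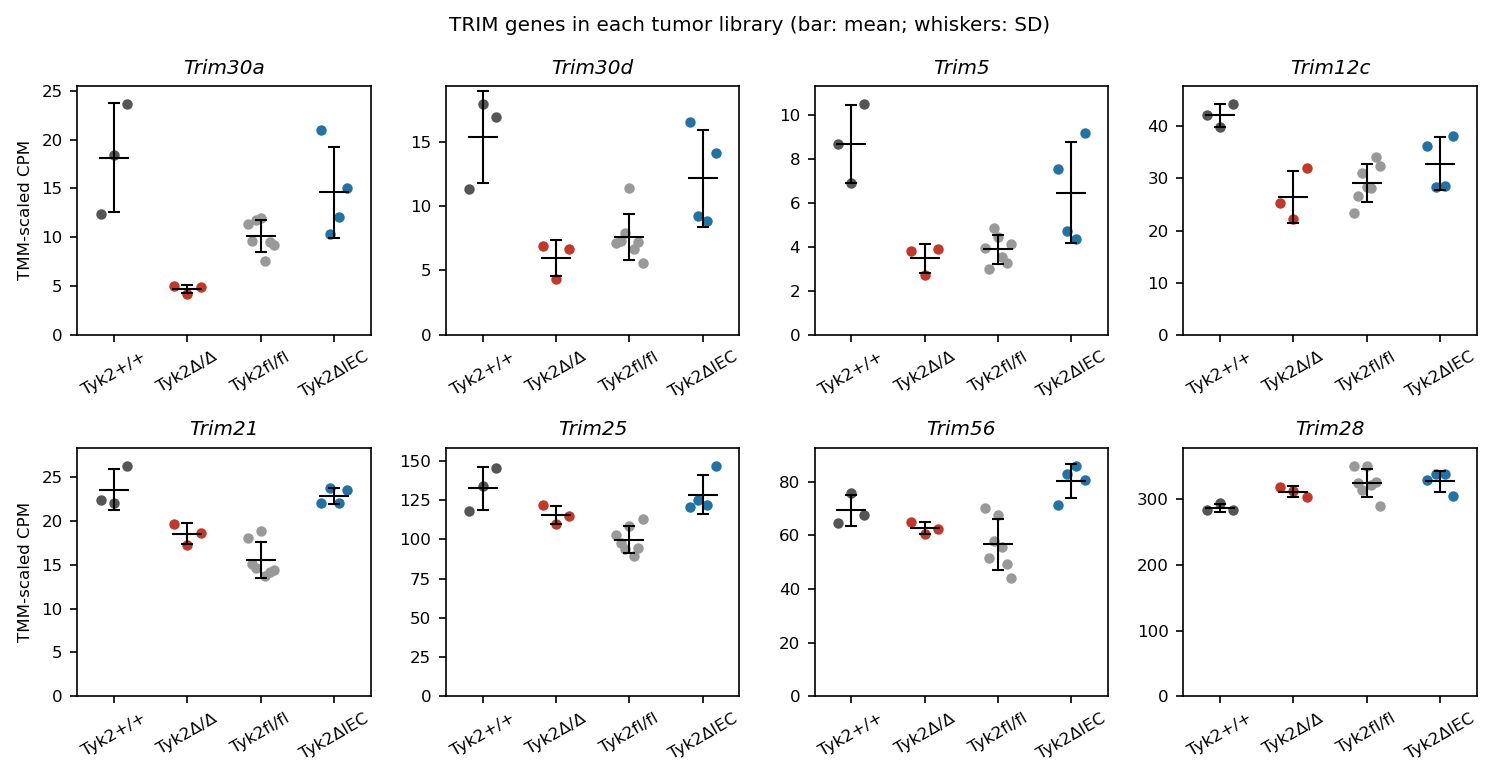
TMM-scaled CPM of 8 TRIM genes in each library (points), with the mean (bar) and SD (whiskers) of the 4 groups on axes that start at 0. The Tyk2Δ/Δ points of Trim30a lie between 4.17 and 4.95 CPM, below every other library, whereas Tyk2ΔIEC points of Trim21 lie between 22.1 and 23.8 CPM, above all Tyk2fl/fl points.

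Several calls were lost when a library was left out, which also makes the groups smaller. Without Tyk2+/+ replicate 3, Tyk2Δ/Δ replicate 1 or Tyk2Δ/Δ replicate 2 only 1 member passed as lower, which was Trim30a. Of the other genes of the interferon pathway, 8 of 15 signalling genes passed as lower and none as higher, with a median log2 fold change of -0.60. The ubiquitin-like Isg15 changed by -2.57 ± 0.30 (edgeR adjusted p = 0.00611) and the transcription factor Irf9 by -0.73 ± 0.07 on the log2 scale. Of 15 tested sensors and partners on which TRIM ligases act, Ifih1 (-0.87 ± 0.13), the RNA sensor Mda5, and Ube2l6 (-1.17 ± 0.16), the E2 enzyme of Isg15, passed as lower.

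Markers of lymphocytes differed with the genotype. The summed level of 9 T and NK cell markers was 14.2 to 21.3 CPM in Tyk2+/+ and 6.26 to 8.18 CPM in Tyk2Δ/Δ libraries, and 4 of 5 tested markers passed as lower. That of 4 B cell markers was 2.46 to 39.5 CPM in Tyk2+/+ and 0.376 to 1.3 CPM in Tyk2Δ/Δ libraries. The 2 tested, Cd79a (-3.32 ± 0.82, edgeR adjusted p = 0.0736) and Pax5 (-4.78 ± 1.24, edgeR adjusted p = 0.0834), did not pass. In whole tumors fewer cells of a type and less RNA per cell cannot be told apart, and the part of these cells in the changes of Trim30a, Trim30d, Trim5 and Trim12c was not tested. Smooth muscle markers were also lower (6 of 8, summed level 107.9 to 176.9 CPM against 238 to 432 CPM), while no macrophage, epithelial or fibroblast marker passed. No marker of the T and NK cell list was at 0 in all libraries of a group.

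Epithelial deletion was compared with floxed controls to see which members follow Tyk2 when only the epithelium lacks it. Members rose here and none fell at the threshold, which Trim8 just missed as lower (edgeR adjusted p = 0.0509). Of 47 members tested 10 passed as higher, namely Trim21, Trim25, Trim56, Trim41, Trim14, Trim5, Trim37, Trim30d, Trim2 and Trim66, against 10.2% of all 17668 genes tested, and 1 of them (Trim66) was higher more than 2-fold, against 1.48% of all genes. None passed as lower in edgeR, where 9.71% of all genes did, and 1 member was lower at an unadjusted p under 0.05, a level that 6041 of the 17668 genes reached in either direction. For lower members DESeq2 gave 1 and limma voom 0 calls. The median log2 fold change was 0.10 over the members and 0.00 over all genes.

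Trim21, a cytosolic receptor for antibody-coated virus, ranged from 13.7 to 18.9 CPM in Tyk2fl/fl libraries (median 14.7) and stood at 22.1, 23.8, 22.1 and 23.6 CPM in Tyk2ΔIEC libraries. The groups did not overlap, and the log2 fold change was 0.55 ± 0.10 (edgeR adjusted p = 0.00377). Trim25, which ubiquitinates the RNA sensor RIG-I, ranged from 89.2 to 112.8 CPM (median 98.0) and stood at 120.8, 125.1, 121.9 and 146.9 CPM (log2 0.36 ± 0.08, edgeR adjusted p = 0.00738). Trim56, an enhancer of cytosolic DNA and RNA sensing, ranged from 44.1 to 70.2 CPM (median 55.6) and stood at 71.2, 82.9, 85.9 and 80.6 CPM (log2 0.50 ± 0.12, edgeR adjusted p = 0.0123). For these 3 genes each Tyk2ΔIEC value lay above the highest Tyk2fl/fl value. The groups of this comparison did not overlap in 8 of the 48 members, and the share over all genes was not counted.

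Trim14, which works as an adaptor of the antiviral protein Mavs, ranged from 7.73 to 13.7 CPM in Tyk2fl/fl libraries (median 10.5) and stood at 16.6, 15, 18.6 and 15.5 CPM in Tyk2ΔIEC libraries (log2 0.58 ± 0.14, edgeR adjusted p = 0.0163). Of its exon bases 38.0% overlap genes on the other strand, mainly Nans, and the strand setting of the counting is not given in the sources used here. Trim41, a ligase that targets viral nucleoproteins, ranged from 61.5 to 68.7 CPM and stood at 78.8, 79.2, 81.7 and 70.4 CPM (log2 0.25 ± 0.06, edgeR adjusted p = 0.0131). Changes of similar size were those of Trim37, which acts at centrosomes and on histone H2A (0.26 ± 0.07, edgeR adjusted p = 0.0272), and Trim2, which is known from neurons (0.21 ± 0.06, edgeR adjusted p = 0.0363).

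Among the TRIM5 and TRIM30 relatives on chromosome 7, Trim5 and Trim30d rose in Tyk2ΔIEC tumors, having fallen in Tyk2Δ/Δ tumors. Trim5 ranged from 3 to 4.85 CPM in Tyk2fl/fl libraries (median 3.96) and stood at 7.56, 4.75, 4.38 and 9.20 CPM in Tyk2ΔIEC libraries (log2 0.73 ± 0.21, edgeR adjusted p = 0.0271). Trim30d ranged from 5.60 to 11.4 CPM (median 7.20) and stood at 16.5, 9.25, 8.81 and 14.1 CPM (log2 0.68 ± 0.20, edgeR adjusted p = 0.0338). In both genes Tyk2ΔIEC replicates 1 and 4 were high and replicates 2 and 3 lay within the control range. Trim30a ranged from 7.53 to 12.0 CPM against 21, 10.3, 12.1 and 15 CPM and missed the threshold (0.53 ± 0.18, edgeR adjusted p = 0.0558). Trim66, a TIF1 gene known from testis, had 5 to 18 counts per Tyk2fl/fl and 10 to 22 counts per Tyk2ΔIEC library, so its call (1.20 ± 0.39, edgeR adjusted p = 0.0459) rests on few reads.

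**Figure D2:**
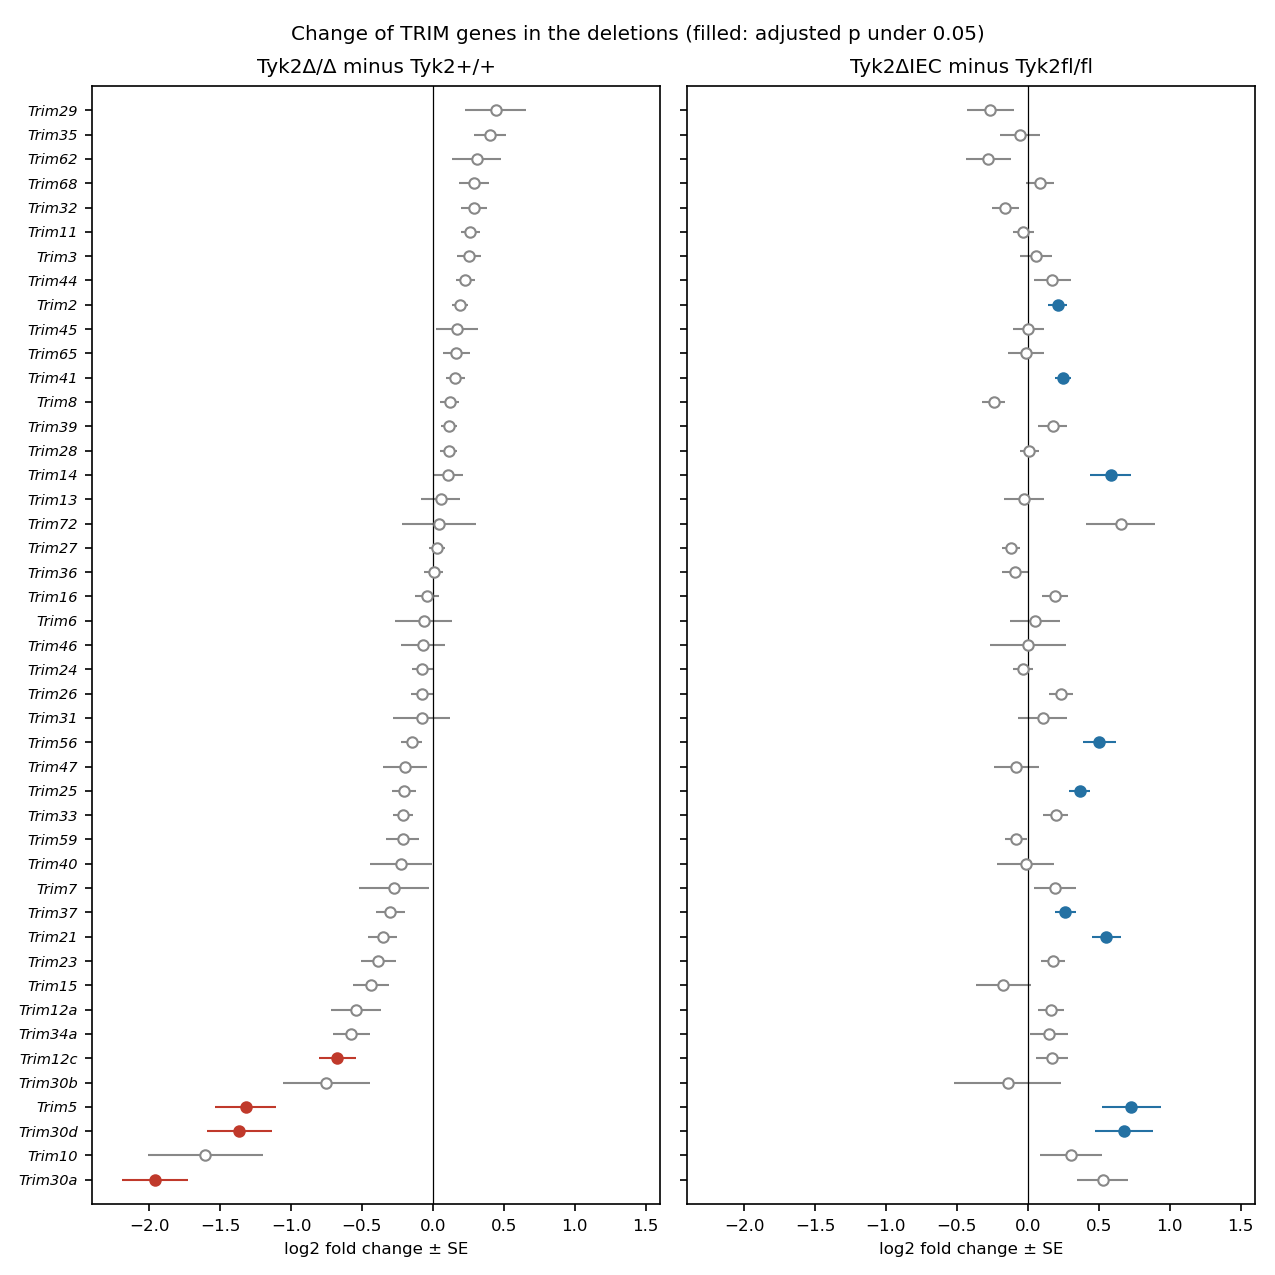
Log2 fold change with SE (horizontal axes) of the 45 TRIM genes tested in both comparisons, with Tyk2Δ/Δ against Tyk2+/+ on the left and Tyk2ΔIEC against Tyk2fl/fl on the right. Filled points passed at an adjusted p under 0.05, which are 4 genes left of 0 in the first and 9 genes right of 0 in the second, and Trim5 and Trim30d are filled in both.

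This count moved when a library was left out. Leaving out Tyk2ΔIEC replicate 3 gave 4 higher members, and leaving out Tyk2ΔIEC replicate 4, Tyk2fl/fl replicate 2 or Tyk2fl/fl replicate 6 gave 5. Without the 3 Tyk2fl/fl libraries with high Xist counts 7 were higher and 2 lower. Of the signalling genes 5 of 15 passed as higher (Isg15, Irf7, Stat2, Irf1 and Jak2) and Ifnar2, a chain of the type I interferon receptor, as lower, and of the 15 tested sensors and partners Ifih1 (0.70 ± 0.10) and Tbk1 (0.28 ± 0.06) passed as higher and the E2 enzymes Ube2n (-0.18 ± 0.05) and Ube2d2a (-0.23 ± 0.07) as lower. The summed T and NK cell markers were 8.23 to 13.6 CPM in Tyk2ΔIEC and 7.19 to 15.2 CPM in Tyk2fl/fl libraries, and none of 6 tested passed. Of 4 fibroblast markers 3 passed as lower in Tyk2ΔIEC tumors (summed level 750 to 929 CPM against 826 to 1421 CPM), while Pdgfra had a positive value (0.26 ± 0.17). Of 5 squamous epithelium markers only Krt4 passed, as higher (2.12 ± 0.25). The part of these cells in the changes was not tested.

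Both comparisons share no library. Trim5 and Trim30d passed in both, which are 2 of the 4 members that passed in the first and 2 of the 10 in the second, with opposite signs. Of the 45 members tested in both, 34 passed in neither. Whether a change differs between the deletions was tested directly, as the difference of both log2 fold changes over all 17 libraries. This difference passed in 13 of 47 members, in all of them with the lower value in Tyk2Δ/Δ, against 5.23% of all 17252 genes tested. In the other direction none passed in edgeR, where 2.73% of all genes did, DESeq2 called 2 and limma voom 0. At an unadjusted p under 0.05 there were 5, beside 4147 of the 17252 genes in either direction.

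The largest differences with enough reads were those of Trim30a (-2.48 ± 0.32, edgeR adjusted p = 0.000212), Trim5 (-2.05 ± 0.34, edgeR adjusted p = 0.00153) and Trim30d (-2.04 ± 0.35, edgeR adjusted p = 0.00201). Trim21 (-0.90 ± 0.15), Trim12c (-0.84 ± 0.19), Trim34a (-0.72 ± 0.21) and Trim12a (-0.69 ± 0.19) followed in the chromosome 7 cluster. Outside it Trim10 (-1.91 ± 0.46), Trim56 (-0.65 ± 0.17), Trim25 (-0.56 ± 0.12), Trim23 (-0.56 ± 0.14) and Trim37 (-0.55 ± 0.13) passed. Trim30c had 3, 9 and 20 counts in the Tyk2+/+, 1, 0 and 1 in the Tyk2Δ/Δ, 13, 5, 6 and 10 in the Tyk2ΔIEC and 3 to 7 in the Tyk2fl/fl libraries, and its call rests on these few reads. It met the count minimum for members only through Tyk2+/+ and Tyk2ΔIEC libraries, the groups where it is high. Its calls here and between the control groups are therefore counted but are no independent result. The count of 13 fell to 7 without Tyk2+/+ replicate 3, to 8 without Tyk2Δ/Δ replicate 1, to 6 without Tyk2Δ/Δ replicate 2 and to 8 without Tyk2ΔIEC replicate 4, while Trim30a, Trim5, Trim30d and Trim21 passed in every alternative run for them.

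Of 7 tested T and NK cell markers, 4 also passed in the difference between the deletions (Cd8a, Nkg7, Prf1 and Gzmb), and 3 in the comparison of the control groups, and their part in the values of the TRIM genes was not tested. The difference takes both control groups as its base, and these differed in several members although Tyk2 is intact in both. In Tyk2fl/fl against Tyk2+/+ tumors 11 of 47 members were lower, against 7.37% of all genes, and 4 were higher, against 5.49%. The lower ones included Trim21 (-0.60 ± 0.10), Trim5 (-1.16 ± 0.21), Trim30d (-1.01 ± 0.22), Trim25 (-0.41 ± 0.08) and Trim30a (-0.84 ± 0.20), and the higher ones were Trim11, Trim8, Trim32 and Trim62 (0.32 to 0.67). The median level of Trim5 was thus 8.68 CPM in Tyk2+/+, 3.84 CPM in Tyk2Δ/Δ, 3.96 CPM in Tyk2fl/fl and 6.15 CPM in Tyk2ΔIEC libraries. All 4 B cell markers were lower in the same comparison (summed level 0.362 to 6.65 CPM in Tyk2fl/fl and 2.46 to 39.5 CPM in Tyk2+/+ libraries), and their part in these values was not tested. The control groups also differ in depth and experiment, which cannot be told apart from the floxed allele. They differ in Xist too, which was high in Tyk2fl/fl replicates 1 to 3 and in no Tyk2+/+ library. Without Tyk2+/+ replicate 3 only 2 members were lower and 0 higher. The median of Trim30a was 18.4 CPM in Tyk2+/+, 4.94 CPM in Tyk2Δ/Δ, 9.59 CPM in Tyk2fl/fl and 13.6 CPM in Tyk2ΔIEC libraries. For both genes the Tyk2fl/fl median lay between those of Tyk2Δ/Δ and Tyk2+/+ tumors, and for Trim5 next to that of Tyk2Δ/Δ tumors.

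**Figure D3:**
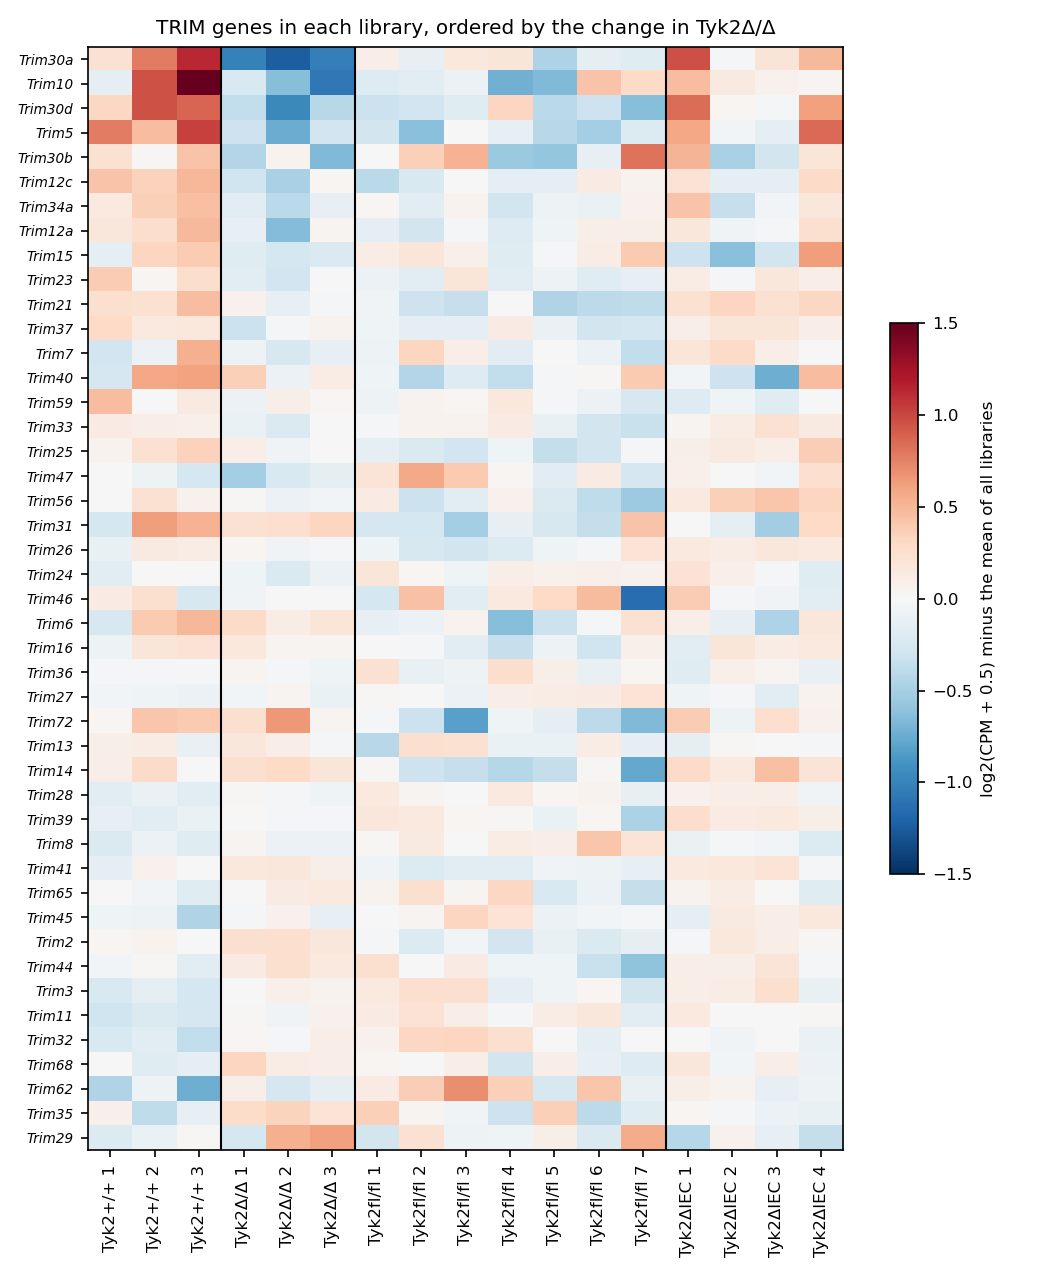
Level of 45 TRIM genes (rows) in the 17 libraries (columns) as log2(CPM + 0.5) minus the mean of all libraries, with colours limited at 1.5 on either side. Rows run from the lowest to the highest log2 fold change in Tyk2Δ/Δ tumors, from Trim30a (-1.96) to Trim29 (0.44), and the uppermost rows are high in Tyk2+/+ and in part of the Tyk2ΔIEC libraries.

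The chromosome 7 cluster was described gene by gene, since it held every member that fell in Tyk2Δ/Δ tumors. It spans Trim21 at chr7:102557921-102565486 to Trim66 at chr7:109449006-109508134 (GENCODE release 21, GRCm38), with a dense block from Trim6 (chr7:104218793-104235152) to Trim30d (chr7:104470014-104507849). Over the 11 members of the cluster tested, the 4 that fell included, the median log2 fold change in Tyk2Δ/Δ tumors was -0.58, which is a description, since the cluster was taken up for these 4. Inside the block the genes did not move alike. Trim6, at its edge, changed by -0.07 ± 0.20 in Tyk2Δ/Δ and by 0.05 ± 0.17 in Tyk2ΔIEC tumors, with 7.14 to 12.3 CPM in Tyk2+/+ and 9.23 to 10.5 CPM in Tyk2Δ/Δ libraries.

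Trim34a and Trim12a had values in the direction of their neighbours that missed the threshold. Trim34a was at 13.3, 15.4 and 16.5 CPM in Tyk2+/+ and at 10.6, 8.89 and 10.9 CPM in Tyk2Δ/Δ libraries (-0.58 ± 0.13, edgeR adjusted p = 0.0607), and it shares 48.6% of its 75-base stretches with Trim34b and an antisense gene. Trim12a, which lacks the PRY-SPRY domain, was at 27.7, 29.5 and 34.6 CPM against 22.5, 15.4 and 25.3 CPM (-0.54 ± 0.18, edgeR adjusted p = 0.129). In neither gene did the groups overlap, which held for 25 of the 48 members in this comparison. The share over all genes was not counted, so this adds nothing to the missed threshold. Trim30b, a relative of Trim30a, had only 0.799 to 2.26 CPM in these 6 libraries (-0.75 ± 0.30, edgeR adjusted p = 0.196). Outside the block but in the cluster, the ubiquitin ligases Trim68 (0.29 ± 0.11, edgeR adjusted p = 0.166) and Trim3 (0.25 ± 0.08, edgeR adjusted p = 0.129) had positive values, and Trim21 (-0.35 ± 0.10) a negative one.

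**Figure D4:**
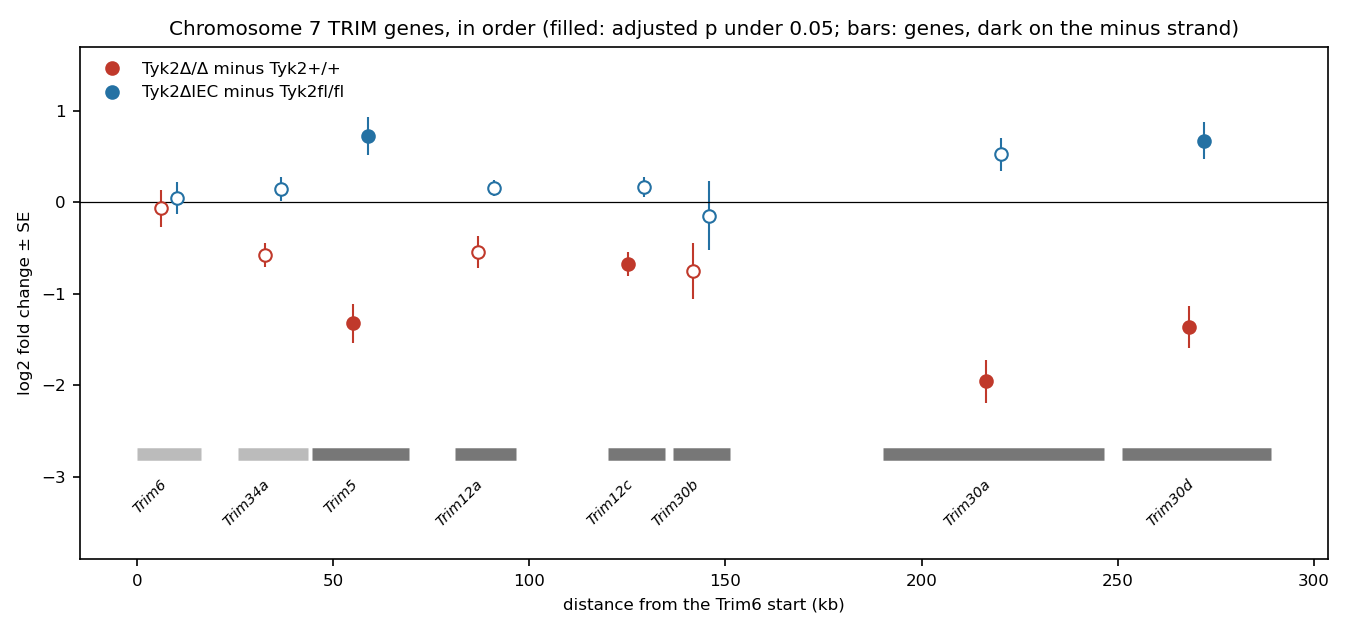
Log2 fold change with SE (vertical axis) of 8 TRIM genes of the chromosome 7 block against their distance from the start of Trim6 in kb, red for Tyk2Δ/Δ against Tyk2+/+ and blue for Tyk2ΔIEC against Tyk2fl/fl, filled where adjusted p is under 0.05. Trim30a has the lowest red point (-1.96) and Trim5 the highest blue one (0.73), and Trim34b and Trim30c are not drawn.

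The second cluster lies in the major histocompatibility region of chromosome 17, and none of its 6 members passed in either deletion. Trim10, which is known from red cell precursors, was at 10.1, 22.2 and 32.9 CPM in Tyk2+/+ and at 9.44, 7 and 5.03 CPM in Tyk2Δ/Δ libraries. Its groups did not overlap, as in 25 of the 48 members, and the wild-type values spread over a wide range (-1.60 ± 0.41, edgeR adjusted p = 0.0776). Trim15 (-0.44 ± 0.13), Trim40 (-0.23 ± 0.22), an inhibitor of NF-κB found in the gut, and Trim31 (-0.08 ± 0.20), which acts on Mavs and the inflammasome, did not pass. Their wild-type libraries were uneven as well, with Trim40 at 39.1, 70.1 and 71.1 CPM and Trim31 at 30.2, 56.5 and 52.4 CPM. Trim26 (-0.08 ± 0.08) and Trim39 (0.11 ± 0.06) did not pass either, and Trim26, whose promoter carries the interferon motif, had 0.23 ± 0.08 in Tyk2ΔIEC tumors (edgeR adjusted p = 0.0655).

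Of the interferon-linked members elsewhere in the genome, Trim25, Trim56 and Trim14 passed in Tyk2ΔIEC but not in Tyk2Δ/Δ tumors. In the germline comparison Trim25 stood at 118.3, 134.1 and 145.5 CPM in Tyk2+/+ and at 121.8, 110.0 and 114.8 CPM in Tyk2Δ/Δ libraries, which overlap (-0.20 ± 0.08, edgeR adjusted p = 0.200). Trim56 changed by -0.15 ± 0.07 and Trim14 by 0.11 ± 0.11, with adjusted p of 0.266 and 0.588 in edgeR. Trim21 changed by -0.35 ± 0.10 (edgeR adjusted p = 0.101), with 22.4, 22.1 and 26.3 CPM against 19.7, 17.3 and 18.6 CPM. The promoters of Trim25 and Trim56 held no match to GAAANNGAAA, and a promoter of Trim14 was not matched.

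Trim37 and Trim23, which passed in the difference, had values of opposite sign in the deletions. Trim37 was at 65.3, 58.9 and 59.3 CPM in Tyk2+/+ and at 42.4, 52.5 and 54.9 CPM in Tyk2Δ/Δ libraries (-0.30 ± 0.10, edgeR adjusted p = 0.137). Trim23, which carries an ARF-type GTPase domain, was at 27.4, 21.3 and 25.2 CPM against 18.7, 17.1 and 21 CPM (-0.39 ± 0.12, edgeR adjusted p = 0.121), and at 0.18 ± 0.08 in Tyk2ΔIEC tumors. Neither gene's groups overlapped in the germline comparison, as in 25 of the 48 members. Trim2 and Trim41 instead had positive values in both deletions, with 0.19 ± 0.06 and 0.16 ± 0.07 in Tyk2Δ/Δ tumors, and their difference between the deletions was -0.01 ± 0.09 and -0.08 ± 0.09.

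By domain, of 25 PRY-SPRY members tested in each deletion 4 passed as lower in Tyk2Δ/Δ and 6 as higher in Tyk2ΔIEC tumors, with median log2 fold changes of -0.08 and 0.17. Over all genes tested, 2.13% passed as lower in Tyk2Δ/Δ and 10.2% as higher in Tyk2ΔIEC tumors, so 1 call in a small group says little. Of the TIF1 group, which binds chromatin through PHD finger and bromodomain, none of 3 tested passed in Tyk2Δ/Δ and only Trim66 of 4 in Tyk2ΔIEC tumors. The NHL group had 3 members and gave 1 call (Trim2 in Tyk2ΔIEC tumors), the group with RING and B-box alone had 4 members and 1 call (Trim56 in Tyk2ΔIEC tumors), and the COS and transmembrane groups had none. The 6 members outside these groups gave 1 call in Tyk2ΔIEC tumors (Trim37). Whether the groups differ in their share of calls was not tested. Of TRIM proteins under another symbol, 6 of 9 were tested, none passed in Tyk2Δ/Δ, and Pml (0.20 ± 0.06) and the microtubule-bound Mid1 (1.12 ± 0.17) passed as higher in Tyk2ΔIEC tumors. Mid1 was at 4.07 to 7.28 CPM in Tyk2fl/fl and at 9.95 to 14.8 CPM in Tyk2ΔIEC libraries.

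Members that passed in neither deletion included the most highly expressed. Per kilobase of exon, Trim28, the corepressor of KRAB zinc finger proteins, led with a median of 76.7 CPM per kb over all libraries, ahead of Trim15 (27.3 CPM per kb), Trim8 (21.2 CPM per kb), Trim44 (19.3 CPM per kb), Trim16 (19.2 CPM per kb), Trim40 (18.8 CPM per kb), Trim59 (16.7 CPM per kb) and Trim27 (15 CPM per kb) among those that passed in neither deletion. Trim28 stood at 283.6, 294 and 283 CPM in Tyk2+/+ and at 319, 312 and 303 CPM in Tyk2Δ/Δ libraries, a log2 fold change of 0.11 ± 0.06 (edgeR adjusted p = 0.298), and at 0.01 ± 0.07 in Tyk2ΔIEC tumors. The related Trim24 (-0.07 ± 0.07 and -0.04 ± 0.07) and Trim33 (-0.21 ± 0.07 and 0.20 ± 0.09), which limits signalling by TGF-β, did not pass in either. Trim8, a ligase that binds Socs1, came close in Tyk2ΔIEC tumors with -0.24 ± 0.08 (edgeR adjusted p = 0.0509). It passed as lower in 10 of the 20 alternatives run for it. Members that passed were found at high and low levels, with Trim41 at 20.1, Trim25 at 19.9, Trim12c at 8.32, Trim30a at 2.75, Trim30d at 2.09 and Trim5 at 1.19 CPM per kb.

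Over the 34 members that passed in neither deletion, log2 fold changes ran from -1.60 (Trim10) to 0.44 (Trim29) in Tyk2Δ/Δ and from -0.28 (Trim62) to 0.65 (Trim72) in Tyk2ΔIEC tumors, with medians of -0.02 and 0.00. Trim29, a gene of keratinocytes and other stratified cells, was at 14, 15.2 and 16.5 CPM in Tyk2+/+ and at 13.5, 23.8 and 25.1 CPM in Tyk2Δ/Δ libraries, where replicate 1 stood below the wild-type values and replicates 2 and 3 above them. The summed squamous markers were 81.6 to 211 CPM in Tyk2+/+ and 85.7 to 217 CPM in Tyk2Δ/Δ libraries. Trim72, a membrane repair protein of muscle, had 0.659 to 1.51 CPM in Tyk2fl/fl and 1.43 to 2.15 CPM in Tyk2ΔIEC libraries (edgeR adjusted p = 0.0775), and 27.6% of its exon bases overlap a gene on the other strand. The other muscle genes of the family, Trim54, Trim55 and Trim63, did not reach the count minimum.

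Among the remaining members none passed in either deletion. Trim35, a ligase of macrophages, was at 31.5 to 43.3 CPM in Tyk2+/+ and at 47.4 to 51.9 CPM in Tyk2Δ/Δ libraries and missed the threshold (0.40 ± 0.11, edgeR adjusted p = 0.0964). Trim36 was at 34.7 to 35 CPM against 34 to 36.5 CPM (0.01 ± 0.07). Trim13, which sits in the membrane of the endoplasmic reticulum, Trim7, Trim47 and Trim65 had log2 fold changes of -0.28 to 0.17 in Tyk2Δ/Δ and of -0.08 to 0.19 in Tyk2ΔIEC tumors, and none passed. Trim11, Trim32 and Trim62, which were higher in Tyk2fl/fl than in Tyk2+/+ tumors, had 0.26, 0.29 and 0.31 in Tyk2Δ/Δ and -0.03, -0.16 and -0.28 in Tyk2ΔIEC tumors. Trim67 had at most 0.802 CPM in any library and was tested in the epithelial comparison only (-0.76 ± 0.47, edgeR adjusted p = 0.280).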

How the data were processed

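RNA of 17 tumor samples was sequenced as directional poly(A) libraries with single-end reads of 75 bases. The authors ran STAR 2.6.1a against GRCm38, as their processing notes name it, and deposited raw STAR counts per gene of Gencode release 23, not normalized or filtered. The 17 single-sample tables were identical to the columns of both series tables. Symbols and positions came from GENCODE release 21, in which 55240 of the 55421 identifiers were found, and promoters from RefSeq.

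In R 4.3.3 with edgeR 4.0.16, low genes were removed (filterByExpr, at least 10 counts and 15 in total), TMM factors computed and quasi-likelihood F tests run, each deletion against its own controls and the difference and the control groups over all 17 libraries. SE was derived from fold change and F statistic. Of the 48 members 45 passed the filter in the germline and 47 in each other fit. Alternatives were DESeq2 1.42.0, limma 3.58.1 voom, RLE scaling, no filter or a minimum count of 50, a 2-fold minimum, all libraries in 1 fit, a replicate block, Tyk2fl/fl libraries thinned or without those with Xist, and leaving out each library. The steps were tested on simulated data. Figures were drawn with matplotlib 3.10.9.

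The members and gene lists were chosen with earlier results of these data known. Named were members that passed, both clusters, interferon-linked, TIF1 and muscle members, Trim29, and the 8 of highest length-scaled level that passed in neither deletion. Protein sequences were not used here.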

Additional observations from a re-analysis of the deposited data

Results flagged for a closer look

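The change in Tyk2Δ/Δ tumors minus that in Tyk2ΔIEC tumors passed the test of the difference in 13 members. On the log2 scale it was -2.48 for Trim30a, -2.05 for Trim5, -2.04 for Trim30d, -1.91 for Trim10, -0.90 for Trim21, -0.84 for Trim12c, -0.72 for Trim34a, -0.70 for Trim12a, -0.65 for Trim56, -0.56 for Trim25, -0.56 for Trim23 and -0.55 for Trim37. For Trim30c the fitted value was -5.53, which depends on the prior count at 0 to 1 counts per Tyk2Δ/Δ library and is no bound.

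In 4 of 72 groups of values a single library stood apart from the others, measured as its gap to the nearest library divided by the range of the group, and chance gives about 1 in 20. Trim23 was at 23.8 CPM in Tyk2fl/fl replicate 3, where the next library had 19.8 CPM (ratio 0.743). Trim30d was at 11.4 CPM in Tyk2fl/fl replicate 4 and at most 7.87 CPM in the others (0.606), and Trim31 at 49.2 CPM in Tyk2fl/fl replicate 7 and at most 33.3 CPM in the others (0.669). Trim25 was at 147 CPM in Tyk2ΔIEC replicate 4 and at most 125 CPM in the others (0.834).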

How the results depend on the processing

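Against 4 members lower in Tyk2Δ/Δ tumors, 8 were lower without a low-count filter and 8 by DESeq2, and leaving out single libraries gave 1 to 5. Higher members were 1 without the filter, 2 by DESeq2 and 0 to 1 with a library left out. In Tyk2ΔIEC tumors the 10 higher members became 2 with a replicate block and 1 with the 2-fold minimum, and 4 to 11 with a library left out. Lower members were 1 under RLE scaling, a minimum count of 50, DESeq2, all libraries in 1 fit or thinned Tyk2fl/fl libraries, 2 without the Tyk2fl/fl libraries with Xist, and 0 to 1 with a library left out. The difference between deletions gave 13 lower members, 5 with the 2-fold minimum and 6 to 14 with a library left out, and for higher members 1 with a minimum count of 50, a replicate block, thinned libraries or without the Xist libraries, 2 by DESeq2 and 0 to 2 with a library left out. Between the control groups 11 lower members became 4 with the 2-fold minimum and 2 to 12 with a library left out, and 4 higher ones 7 with the block, 0 with the 2-fold minimum and 0 to 7 with a library left out. The causes were not tested. Other alternatives stayed within 1.5 times these counts.

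Same-numbered libraries correlated at -0.08, -0.08 and 0.00 in the germline and at -0.39, -0.11, 0.08 and 0.00 in the epithelial experiment. Differently numbered ones ranged from -0.09 to 0.15 and from -0.26 to 0.38. So few pairs cannot settle whether replicate numbers pair the samples. With the replicate block 3 members were lower in Tyk2Δ/Δ tumors, without Trim30d (edgeR adjusted p = 0.0687), and 12 passed in the difference. Over 105 single-gene results and 2034 alternatives, 1877 kept their side of the threshold, 114 lost and 43 gained a call, and none that passed on either side changed sign. Trim30a in Tyk2Δ/Δ (adjusted p from 2.37e-13 by DESeq2 to 0.0380 by edgeR without Tyk2Δ/Δ replicate 2) and Trim25 in Tyk2ΔIEC tumors (from 0.000457 by DESeq2 to 0.0326 by edgeR with the replicate block or without the Xist libraries) passed in all alternatives run. Trim30c and Trim66 are limited by their few reads.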
